A study of Homo sapiens with 6 samples.

Results

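Replication dependent histones are the histone proteins that a cell makes in bulk while it copies its DNA. They were taken here as every probe set of an Affymetrix expression array whose gene symbol is H1-1 to H1-6 or begins with H2AC, H2BC, H3C or H4C and a number. The rule found 61 genes, each with 1 probe set, among 17687 named genes. Of these, 6 encode the linker histone H1, 14 encode H2A, 17 encode H2B, 9 encode H3 and 15 encode H4. The arrays measured RNA of A431 cells, an established line from a human epidermoid carcinoma that carries an amplified EGFR gene. There were 3 groups of 2 samples with 1 array each: EGF plus gefitinib, EGF alone, and an untreated control. Per the labels, cells kept in medium with 10% serum were starved for 24 h, EGF was used at 100 ng/ml and gefitinib, an inhibitor of the EGFR kinase, at 10 µM, and cells were harvested after 30 min. All samples carry the same protocol text, which does not say in which order EGF and gefitinib were added, and every group, control included, shares the starvation. Only 1 cell line was studied, and gefitinib was given only together with EGF.

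A nucleosome is built from H2A, H2B, H3 and H4, and H1 binds the DNA that enters and leaves it. The genes for these proteins lie in clusters, lack introns, and give mRNAs that end in a conserved stem-loop in place of a poly(A) tail. NPAT switches the clusters on under control of cyclin E and CDK2, SLBP binds the stem-loop, and the mRNAs are degraded when DNA synthesis stops. Because many of the genes are near-identical copies, such as H4C14 and H4C15 or H2AC18 and H2AC19, a probe set of one may also capture RNA of another, and the values of single genes are uncertain to that extent. The whole-transcript labelling used here starts from total RNA and does not depend on a poly(A) tail.

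The promoters below are shown because they belong to members that passed a test and because they show which of the motifs counted further on each one holds. Each is the 250 bases before the annotated start of the gene, on its coding strand, from RefSeq on build GRCh38.p14. All 5 lie on the plus strand, at chr6:26204360-26204609 for H4C5, chr6:27809801-27810050 for H3C10, chr6:27893175-27893424 for H2BC17, chr6:26123922-26124171 for H2AC6 and chr1:228457853-228458102 for H2BC26. Capitals mark the TATA box TATAAA, the octamer ATTTGCAT, the CCAAT box CCAAT and the H4 element core GGTCCG, each read on both strands.
H4C5: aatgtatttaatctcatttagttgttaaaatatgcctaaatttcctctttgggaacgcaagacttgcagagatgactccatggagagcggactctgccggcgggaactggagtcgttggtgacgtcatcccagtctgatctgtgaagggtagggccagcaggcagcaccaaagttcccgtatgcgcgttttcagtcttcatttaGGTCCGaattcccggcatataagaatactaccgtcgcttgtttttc
H3C10: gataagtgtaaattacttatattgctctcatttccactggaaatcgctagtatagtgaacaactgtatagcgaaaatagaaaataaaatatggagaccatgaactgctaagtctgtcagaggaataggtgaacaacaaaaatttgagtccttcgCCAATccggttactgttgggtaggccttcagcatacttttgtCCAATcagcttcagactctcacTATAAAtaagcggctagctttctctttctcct
H2BC17: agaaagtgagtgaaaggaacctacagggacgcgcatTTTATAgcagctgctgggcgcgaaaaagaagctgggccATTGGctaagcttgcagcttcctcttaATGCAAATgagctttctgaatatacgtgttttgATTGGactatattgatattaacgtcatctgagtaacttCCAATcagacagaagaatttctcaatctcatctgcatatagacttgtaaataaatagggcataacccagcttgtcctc
H2AC6: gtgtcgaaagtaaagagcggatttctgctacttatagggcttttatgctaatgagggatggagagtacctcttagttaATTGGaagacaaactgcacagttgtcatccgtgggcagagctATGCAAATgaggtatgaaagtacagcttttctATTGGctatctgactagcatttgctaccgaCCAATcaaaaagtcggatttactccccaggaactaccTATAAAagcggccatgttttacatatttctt
H2BC26: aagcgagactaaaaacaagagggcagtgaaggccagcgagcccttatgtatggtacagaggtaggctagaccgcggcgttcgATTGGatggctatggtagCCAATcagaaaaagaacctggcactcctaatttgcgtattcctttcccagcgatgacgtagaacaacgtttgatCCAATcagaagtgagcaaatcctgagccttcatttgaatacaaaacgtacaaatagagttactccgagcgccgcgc
H4C5 holds the H4 element core and no other of these 4 motifs. H2BC17 and H2AC6 hold the TATA box, the octamer and the CCAAT box, H3C10 the TATA box and the CCAAT box, and H2BC26 only the CCAAT box. In H2BC17 the TATA box letters are on the opposite strand, as TTTATA, near the end of the window far from the gene.

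Values are log2 signals, so a difference of 1 is a doubling, and 21448 transcript probe sets were tested. A probe set was taken as above background on an array when it passed a limit set at percentile 95 of the 612 negative controls on that array, which was 7.14 to 7.65 over the 6 arrays. Between 38.4% and 42.1% of probe sets passed it on an array. Of the histones, 53 passed on 2 or more arrays and 47 on all 6, while 7 passed on none. All 6 measured markers of squamous epithelium fixed for the check, EGFR, KRT5, KRT14, CDH1, EPCAM and SFN, were above the limit on every array, while 2 of 5 fibroblast, 1 of 5 leukocyte and 1 of 5 endothelial markers were above it on 2 or more. FOSL1, a gene that EGFR signalling induces, had 10.21 and 9.55 in EGF plus gefitinib, 13.88 and 13.87 in EGF and 9.95 and 9.79 in control. DUSP6, another such gene, had 11.23 and 10.9 in EGF plus gefitinib, 12.58 and 12.42 in EGF and 8.36 and 8.56 in control, so with gefitinib it was lower than in EGF but stayed 2.61 above control (adjusted p = 0.00618, lost without EGF plus gefitinib 2, control 1 or control 2). EGFR itself was 0.87 higher in EGF plus gefitinib than in EGF and 0.91 higher than in control (adjusted p = 0.0125 and 0.0372, the first lost without EGF 1, EGF 2 or EGF plus gefitinib 2 and the second whichever array was left out). The 2 arrays of a group correlated at r = 0.991 to 0.994 over all probe sets. The labels call the samples of a group biological replicates, and nothing states that they came from separate cultures, so the spread behind each p-value may be technical. With 2 arrays a group, that number limits the precision of every value.

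The 2 EGF plus gefitinib arrays differed from each other in the histones. Array 1 was above array 2 in 57 of 61 histones, with a median difference of 0.31, although the same difference over all probe sets was −0.01. This held in all 17 H2B genes, where the median difference was 0.44, and in 8 of 9 H3 genes, where it was 0.37. In EGF, array 1 was the higher one in 14 of 61 histones, with a median difference of −0.10, and in control in 40 of 61, with 0.04. Comparisons with EGF plus gefitinib are therefore given below with and without each of its arrays.

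**Figure D1:**
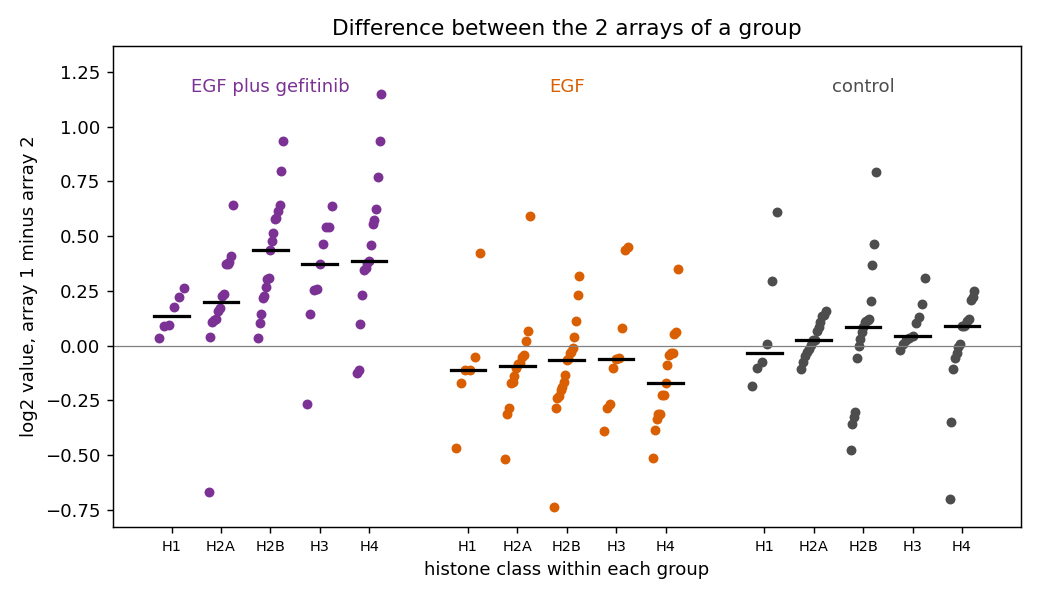
Log2 value of each histone gene on array 1 minus array 2 of the same group (points), by histone class, for EGF plus gefitinib, EGF and control. Most EGF plus gefitinib points lie above 0 (57 of 61), most EGF points lie below it and control points lie on both sides.

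**Figure D2:**
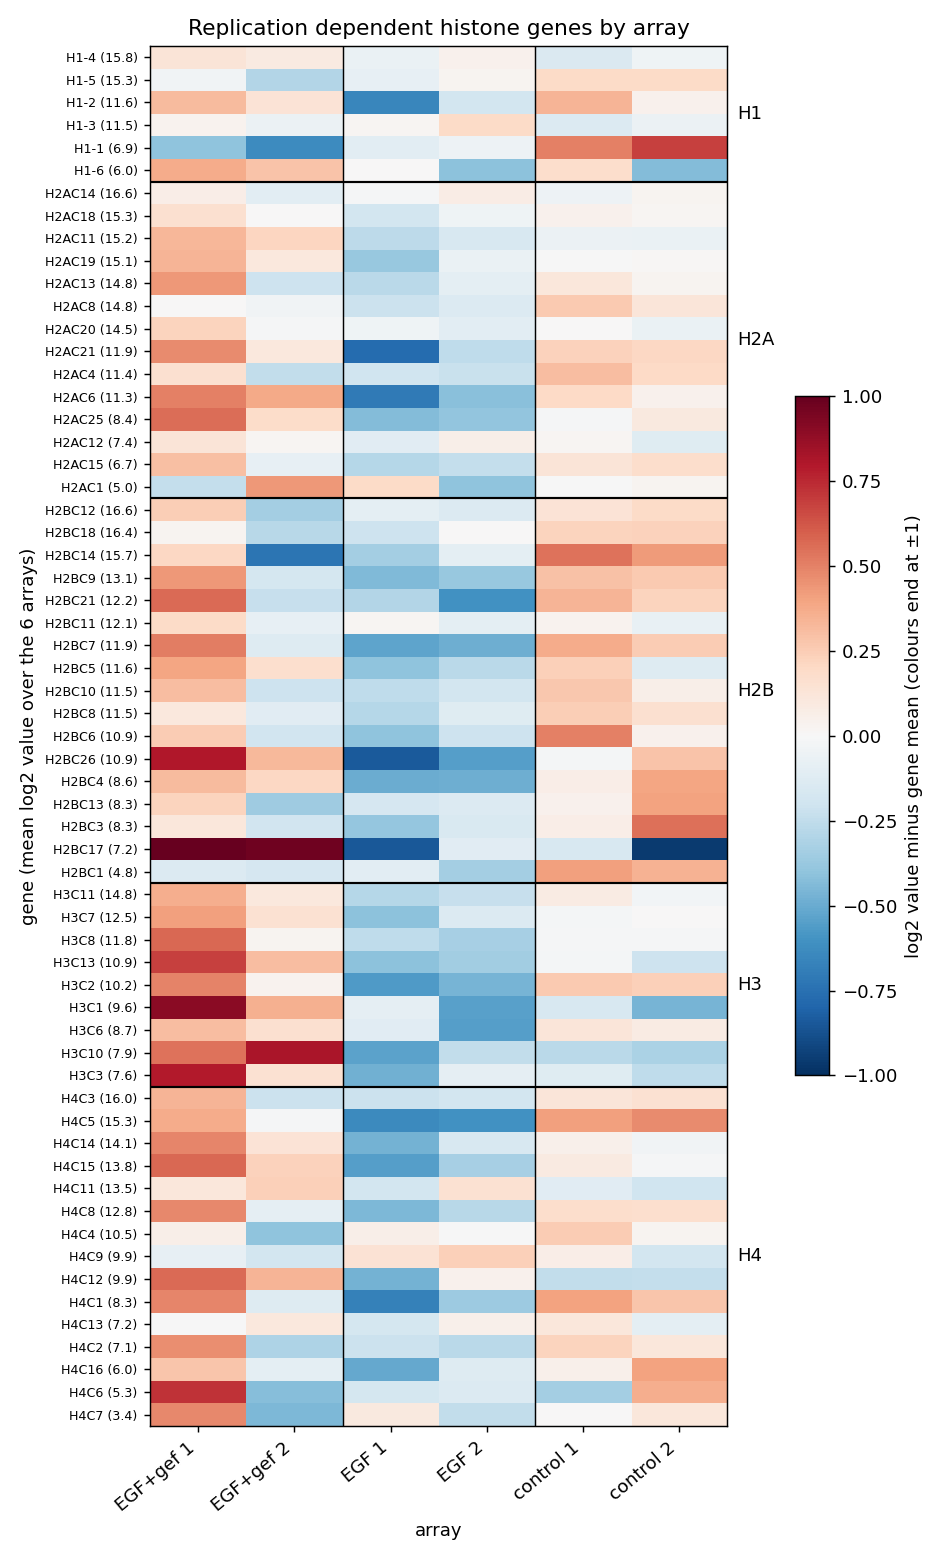
Heat map of the 61 histone genes (rows, ordered by class and mean signal, which is printed beside each name) on the 6 arrays (columns), coloured by the log2 value minus the gene's mean over the arrays. The EGF columns are mostly blue, below the gene mean, and EGF plus gefitinib array 1 is mostly red.

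The first comparison asks what EGF did to histone RNA. H4C5, which encodes H4, fell, and it was the only one of 61 histones to pass the test in either direction. H4C5 had 14.68 and 14.72 on the EGF arrays, against 15.73 and 15.79 on the control arrays. Both EGF arrays were below both control arrays, and the gap was wide beside the distance between arrays of a group. The log2 change was −1.06 ± 0.20 (SE), a 2.09-fold lower signal (limma, adjusted p = 0.0159). In bulk RNA, fewer cells that make histones and less histone RNA per cell cannot be told apart. Over all probe sets, 11.9% were called in this comparison, 6.61% higher and 5.3% lower, so 1 of 61 lies below the background in this fit. The call for H4C5 was lost when control 1, control 2, EGF 1 or EGF 2 was left out, with changes of −1.09 to −1.03 and adjusted p of up to 0.0927, and 5 histones passed as lower when either of the EGF plus gefitinib arrays was left out.

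Some markers of other cell types moved in the comparisons with EGF as well, and so did SFN of the squamous list. SFN rose by 1.02 in EGF over control and fell by 2.09 in EGF plus gefitinib over EGF and by 1.07 against control, called in each. Of these only the call in EGF plus gefitinib over EGF held whichever array was left out. Over all probe sets 6.61% rose and 5.3% fell in EGF over control, and 8.86% and 9.81% did in EGF plus gefitinib over EGF. Against control 1.7% fell. Of 5 fibroblast markers 2 fell in EGF over control, LUM by 1.34 and DCN by 1.21, and their list had a median of −0.33. LUM had 8.36 and 7.92 in EGF, against 9.44 and 9.53 in control, a call lost without control 1, control 2, EGF 1 or EGF 2. DCN and COL1A1 were below the limit on all 6 arrays. Of 5 endothelial markers 1 was called, CDH5, with 7.48 and 7.71 in EGF plus gefitinib, 4.84 and 5.21 in EGF and 7.5 and 7.0 in control. CDH5 fell by 2.22 in EGF and rose by 2.57 in EGF plus gefitinib over EGF, with both EGF arrays below the limit, while PECAM1, VWF, KDR and TEK were below the limit on every array. The linear signal summed over the list was 533 to 722, 471 to 599 and 1009 to 1082 for fibroblasts in EGF plus gefitinib, EGF and control, and 270.5 to 294, 93.5 to 114 and 191 to 243 for endothelium. For leukocytes, where 0 of 5 were called by limma in any comparison (1 lower at an unadjusted p under 0.05, in EGF plus gefitinib over control), it was 5007 to 6645, 7447 to 8786 and 7052 to 7210. On every array 3 of 5 fibroblast, 4 of 5 leukocyte and 4 of 5 endothelial markers were below the limit. Each sum therefore rests on few genes. The samples are labelled as A431 cells, and the part of other cell types in the histone results was not tested.

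Most other histones were lower in EGF by small amounts that did not pass. Of the 61 fitted changes, 53 were negative and 8 positive, where 52.5% and 47.5% of all probe sets were, and the median was −0.33 against −0.03 over all probe sets. In 42 histones both EGF arrays were below both control arrays and in 2 both were above, against 28.5% and 27% of all probe sets. At an unadjusted p under 0.05, 16 histones were lower and 0 higher, against 12.7% and 13.8% of all probe sets. The class medians were −0.15 for H1, −0.24 for H2A, −0.57 for H2B, −0.27 for H3 and −0.33 for H4. Differences between classes were not tested.

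H2B had 15 of 17 genes with no overlap between the groups, all lower in EGF, and 8 of the 16 that passed without adjustment. Its leading gene was H2BC4, with 8.07 and 8.08 in EGF, against 8.63 and 8.96 in control. Both EGF arrays were lower, and the change of −0.72 ± 0.19 (SE) just missed the threshold (adjusted p = 0.0505). H2A had 10 of 14 genes without overlap, all lower, led by H2AC6 with 10.57 and 10.86 in EGF, against 11.48 and 11.32 in control (change −0.68, adjusted p = 0.061). In H3, 6 of 9 genes did not overlap, and all 9 changes were negative. H3C2 led them with 9.68 and 9.78 in EGF, against 10.51 and 10.48 in control (change −0.77, adjusted p = 0.0563). None of these leading genes passed. In each the EGF arrays were the lower ones, but each was picked for the largest statistic of its class, which favours arrays that do not overlap. In H1, 3 of 6 genes were lower and 1 higher without overlap, and in H4 8 of 15 were lower and 1 higher.

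Not every bright histone signal was lower in EGF. H1-4, the brightest H1 probe set, had 15.71 and 15.82 in EGF, against 15.63 and 15.73 in control. H2AC14, the brightest of the H2A probe sets, had 16.62 and 16.71 in EGF, against 16.58 and 16.65 in control. The groups overlapped in both genes, with changes of 0.08 and 0.05. H3C11, H4C3 and H2BC12, the brightest probe sets of their classes, had changes of −0.29, −0.33 and −0.28, none of which passed. Across the 61 genes the correlation of the change with the mean signal was r = −0.01 for EGF over control, −0.11 for EGF plus gefitinib over EGF and −0.12 for EGF plus gefitinib over control. These correlations are over genes that share arrays and partly share sequence.

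The second comparison asks how the cells given gefitinib with EGF differed from the cells given EGF alone. Of 61 histones 11 rose and 0 fell: H2AC6 and H2AC25, which encode H2A, H2BC4, H2BC17 and H2BC26, which encode H2B, H3C1, H3C2, H3C10 and H3C13, which encode H3, and H4C5 and H4C15, which encode H4. Their log2 changes ran from 0.75 for H2BC4 to 1.52 for H2BC17. Over all probe sets 18.7% were called, 8.86% higher and 9.81% lower. At an unadjusted p under 0.05, 25 histones were higher and 1 lower, against 16.1% and 15.3% of all probe sets. The median change of the histones was 0.37 against 0.05 over all probe sets, and 53 of 61 changes were positive and 8 negative, where 54% and 46% of all probe sets were. In 37 histones both EGF plus gefitinib arrays were above both EGF arrays, and in 2 both were below, against 30.8% and 26.3% of all probe sets.

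How many passed depended on single arrays. The number called over all probe sets did as well, so counts are not compared between fits that left out 1 array. Every histone call of the fit over all arrays was lost without EGF 1. All but that of H3C10 were lost without EGF plus gefitinib 1. The median change of the histones was 0.22 to 0.58 in the fits that left out 1 array, so its sign held in each.

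**Figure D3:**
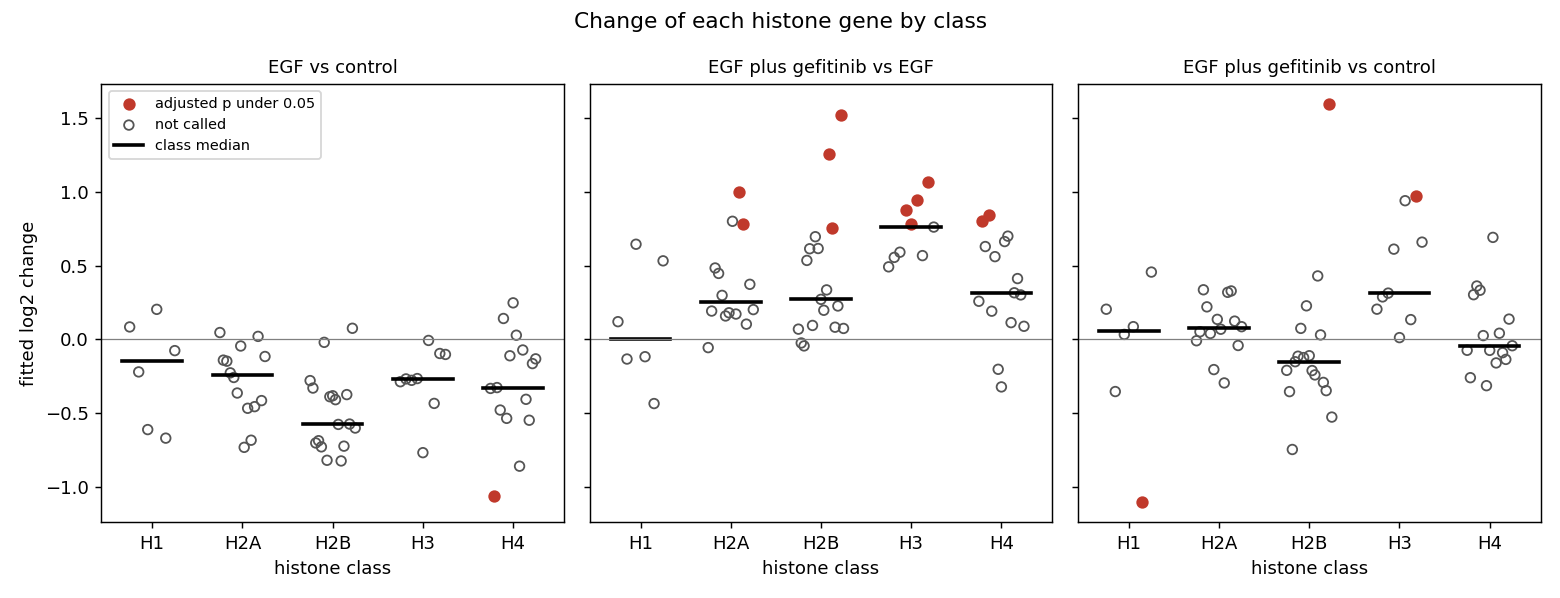
Fitted log2 change of each histone gene (points) by class in the 3 comparisons, with filled points for adjusted p under 0.05 and bars for class medians. In EGF plus gefitinib over EGF all 9 H3 genes lie above 0, and in EGF over control H2B has the lowest class median.

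H3 stood highest by class median in this comparison, at 0.76, against 0.00 for H1, 0.25 for H2A, 0.27 for H2B and 0.32 for H4. All 9 H3 genes had positive changes without overlap between the groups, all 9 had an unadjusted p under 0.05, and 4 passed the adjusted threshold. Without EGF plus gefitinib 1 the H3 median was at its lowest over the fits that left out an array, 0.50, and its highest was 0.93. Of the H3 genes 1, H3C10, was called without EGF plus gefitinib 1, 5 were called without EGF plus gefitinib 2, 0 without EGF 1, 1 without EGF 2 and 2 without control 1 or without control 2.

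H3C10 had 8.49 and 8.75 on the EGF plus gefitinib arrays, 7.41 and 7.70 on the EGF arrays and 7.67 and 7.63 on the control arrays. The EGF plus gefitinib arrays were above the other 4, and EGF and control overlapped. It rose by 1.07 ± 0.20 (SE) over EGF, 2.10-fold (adjusted p = 0.00997), although only 1 of the 2 EGF arrays was above the background limit. The call over EGF was lost without EGF 1 or without EGF plus gefitinib 2. H3C10 was one of 4 genes in which EGF plus gefitinib array 2 was the higher of its group.

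H3C13, on chromosome 1, had 11.58 and 11.21 in EGF plus gefitinib, 10.48 and 10.55 in EGF and 10.87 and 10.68 in control. It rose by 0.88 ± 0.20 (SE) over EGF (adjusted p = 0.0226). H3C1 had 10.51 and 9.97 in EGF plus gefitinib, 9.52 and 9.07 in EGF and 9.46 and 9.15 in control, and rose by 0.95 over EGF (adjusted p = 0.0452). In H3C1 the EGF and control arrays overlapped, while in H3C2 control lay near EGF plus gefitinib. H3C2 had 10.74 and 10.28 in EGF plus gefitinib, 9.68 and 9.78 in EGF and 10.51 and 10.48 in control, and rose by 0.78 over EGF (adjusted p = 0.0397). H3C11, the brightest H3 probe set, had 15.14 and 14.89 in EGF plus gefitinib, against 14.49 and 14.55 in EGF, and its change of 0.49 did not pass (adjusted p = 0.11).

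H2B contributed the largest change. H2BC17 had 8.28 and 8.14 on the EGF plus gefitinib arrays, 6.31 and 7.05 on the EGF arrays and 7.0 and 6.21 on the control arrays. It was above the background limit on both EGF plus gefitinib arrays and below it on the other 4. The fitted change over EGF was 1.52 ± 0.33 (SE, adjusted p = 0.0192), and since the EGF signal is only bounded by the limit, the signal was at least 1.78-fold higher. A bound of this kind sets the mean of the bright group against the higher of the dim probe's own signal and the limit on each dim array. H2BC26 had 11.68 and 11.20 in EGF plus gefitinib, 10.04 and 10.33 in EGF and 10.86 and 11.16 in control. It rose by 1.26 ± 0.24 (SE), 2.39-fold over EGF (adjusted p = 0.0108), and control lay between the other groups. H2BC4 had 8.88 and 8.78 in EGF plus gefitinib, against 8.07 and 8.08 in EGF, and rose by 0.75 (adjusted p = 0.0321). Against these 3, H2BC12, the brightest H2B probe set, had 16.85 and 16.26 in EGF plus gefitinib, against 16.50 and 16.47 in EGF, with overlapping arrays and a change of 0.07. None of the 3 H2B calls held without EGF 1 or without EGF plus gefitinib 1, and without EGF plus gefitinib 2 only that of H2BC26 did.

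H2AC6 had 11.78 and 11.66 in EGF plus gefitinib, 10.57 and 10.86 in EGF and 11.48 and 11.32 in control. EGF was the lowest group on both arrays, and the rise over EGF was 1.0 ± 0.19 (SE), 2.0-fold (adjusted p = 0.0111). H2AC25, on chromosome 1 beside H2BC26, had 8.94 and 8.57 in EGF plus gefitinib, 7.95 and 7.99 in EGF and 8.37 and 8.48 in control, and rose by 0.79 over EGF (adjusted p = 0.0313). The brightest H2A probe set, H2AC14, had 16.69 and 16.52 in EGF plus gefitinib, against 16.62 and 16.71 in EGF, and these overlapped. Without EGF 1 or without EGF plus gefitinib 1 neither H2A gene was called, and among the fits that left out an array H2AC25 passed only without EGF plus gefitinib 2.

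H4C5 was the one member called in both comparisons with EGF, which share the EGF arrays. It had 15.69 and 15.31 on the EGF plus gefitinib arrays, against 14.68 and 14.72 on the EGF arrays, and rose by 0.80 ± 0.20 (SE), 1.74-fold (adjusted p = 0.0289). H4C15, on chromosome 1, had 14.33 and 13.99 in EGF plus gefitinib, 13.21 and 13.43 in EGF and 13.85 and 13.75 in control. It rose by 0.84 ± 0.20 (SE) over EGF (adjusted p = 0.0263), with control between the other groups. H4C3, the brightest H4 probe set, had 16.38 and 15.83 in EGF plus gefitinib, against 15.83 and 15.86 in EGF, so only array 1 stood above EGF. Of the H4 genes 3 were called without EGF plus gefitinib 2, 1 without control 1 or without control 2, and none without EGF plus gefitinib 1, EGF 1 or EGF 2. H1 had no gene called, and its leading gene, H1-2, had 11.95 and 11.77 in EGF plus gefitinib, against 10.98 and 11.45 in EGF (change 0.65, adjusted p = 0.0944).

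**Figure D4:**
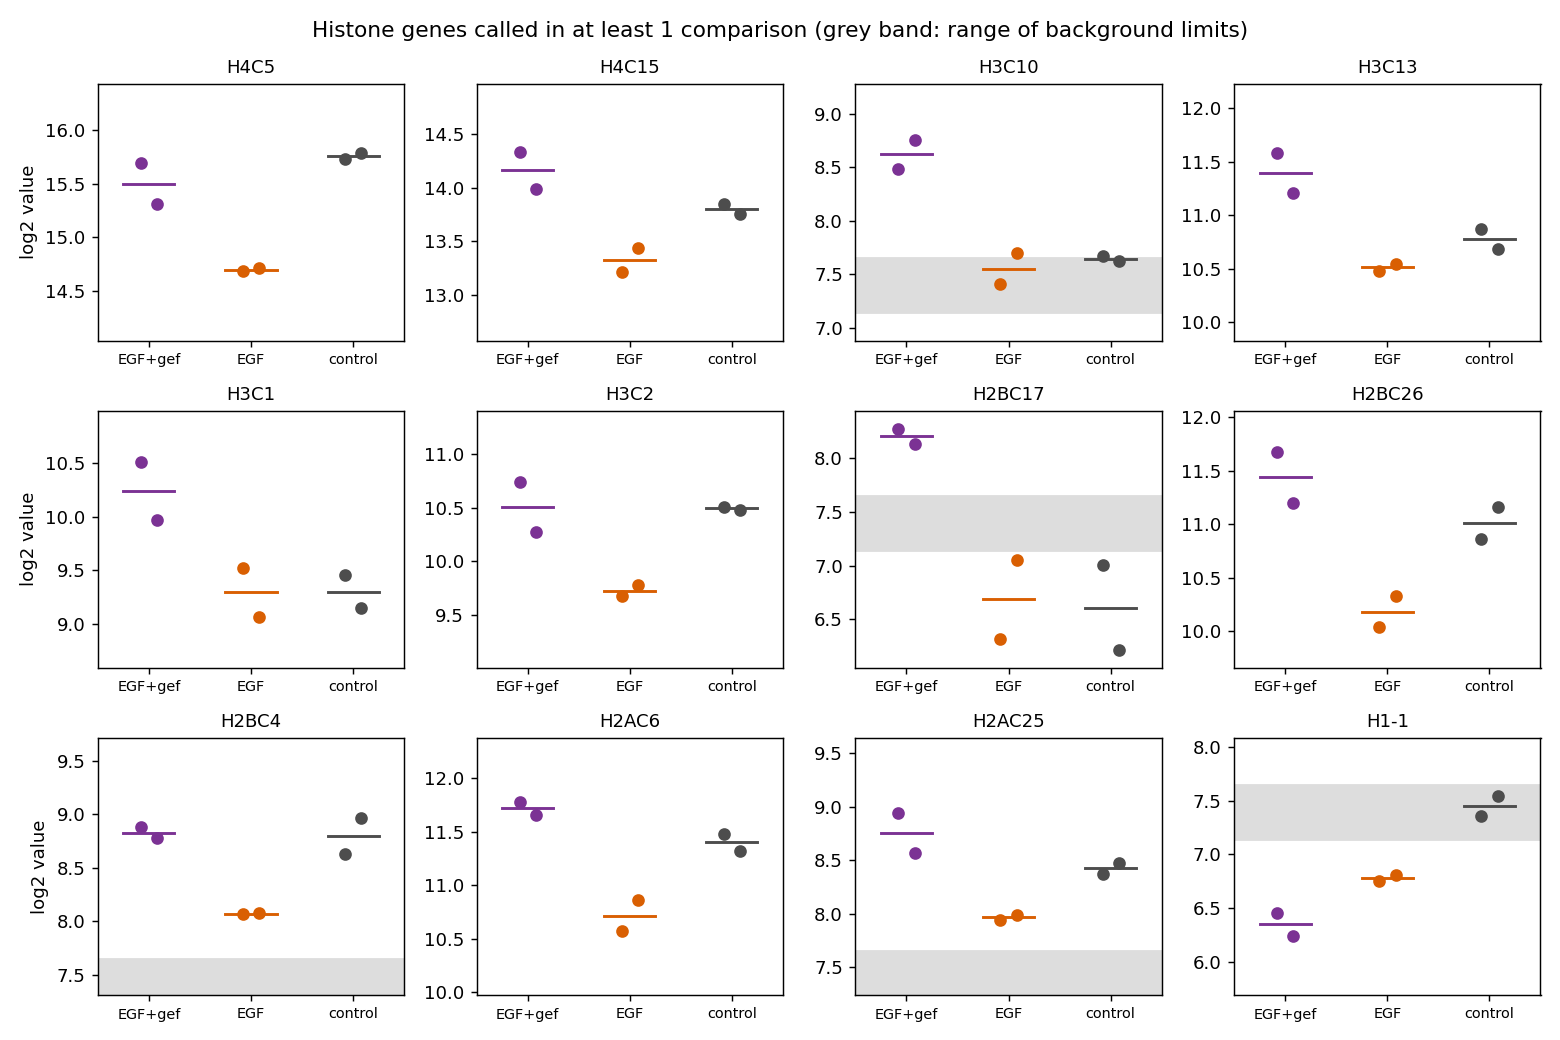
Log2 value on each array (points) in EGF plus gefitinib, EGF and control for the histone genes called in at least 1 comparison, with the grey band for the range of background limits, 7.14 to 7.65. In H4C5, H2AC6, H2BC4 and H3C2 the EGF arrays are the low ones, while in H3C10 and H2BC17 the EGF plus gefitinib arrays stand above the other 4.

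The third comparison sets EGF plus gefitinib against control. H3C10 and H2BC17 rose and H1-1 fell, out of 61 histones, where 3.89% of all probe sets were called, 2.19% higher and 1.7% lower. H3C10 rose by 0.97 ± 0.20 (SE), 1.96-fold (adjusted p = 0.0442), and H2BC17 by 1.6 ± 0.33 (SE), at least 1.89-fold (adjusted p = 0.0478). H1-1, a linker histone known mainly from testis and lymphoid cells, had 6.46 and 6.23 in EGF plus gefitinib, 6.76 and 6.81 in EGF and 7.36 and 7.54 in control. Only its control arrays were above the background limit, by little, so no fold is given for its change of −1.11 ± 0.18 (SE, adjusted p = 0.0275). All 3 calls were lost whichever array was left out, with adjusted p of 0.062 to 0.191 in those fits.

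The median change of the histones was 0.04 against 0.01 over all probe sets. Changes were positive in 35 and negative in 26, where 51.1% and 48.9% of all probe sets were. At an unadjusted p under 0.05, 6 histones were higher and 3 lower, against 10.7% and 10.1% of all probe sets. Both EGF plus gefitinib arrays were above both control arrays in 22 histones and below both in 9, against 25.6% and 24.7% of all probe sets. Without EGF plus gefitinib 1 the histone median was −0.09 and without EGF plus gefitinib 2 it was 0.21, so its sign turned on which array was kept. H3 had the highest class median, 0.31, with 8 of 9 genes higher without overlap, and H2B the lowest, −0.15, with 2 of 17 higher and 4 lower without overlap. The H3 median was 0.16 to 0.59 in the fits that left out an array. The leading H2A and H4 genes did not pass: H2AC11 had 15.56 and 15.44 in EGF plus gefitinib, against 15.16 on both control arrays (adjusted p = 0.32), and H4C12 had 10.48 and 10.25, against 9.67 and 9.68 (adjusted p = 0.134).

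By the order of the 3 group means, EGF was lowest in 48 of 61 histones. EGF plus gefitinib was highest and control next in 29 of them, among these all 9 H3 genes, and control was highest in 19, among these 10 of the 17 H2B genes. EGF plus gefitinib was lowest in 7 histones and control in 6. This order is a description, since the 3 comparisons share arrays, and in many of these genes neighbouring groups did not differ beyond their spread. It was not counted over all probe sets, so these counts have no background beside them.

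The genes lie at 3 stretches of chromosome 6 (49 genes), 2 of chromosome 1 (11 genes) and 1 place on chromosome 12 (H4C16), taking genes more than 300 kb apart as separate. The largest stretch, with 32 genes on chromosome 6, held 5 of the 11 members that rose over EGF, where 8.86% of all probe sets did, and had a median change of 0.43. The other stretches of chromosome 6 had 0 of 5 and 2 of 12 members called and medians of 0.09 and 0.25. On chromosome 1 the longer stretch had 2 of 9 called with a median of 0.62, and the shorter one, which holds H2AC25 and H2BC26, had both called. With so few genes a stretch, the counts do not set the stretches apart from each other or from the background. In EGF over control the median was −0.41 in the 32 genes, −0.02 and −0.16 in the other stretches of chromosome 6, and −0.33 in the 9 genes and −0.64 in the pair on chromosome 1. Neighbouring genes resemble each other in sequence, so these counts are not independent of shared probe signal.

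H2A and H2B genes often sit head to head and share the DNA between them. Among neighbouring genes that both had a promoter window, 8 such pairs were counted, whose 250-base upstream windows overlap by 214 to 247 bases. A pair with a gene that lacks a window, such as H2AC12, could not be counted. In EGF over control the H2B gene had the lower change in 7 of 8 pairs, with a median H2B minus H2A difference of −0.24. The difference was widest in H2AC14 and H2BC14, with 0.05 for the H2A and −0.70 for the H2B gene, and in H2AC20 and H2BC21, with −0.04 and −0.73. The H2B gene was the lower one in 4 of 8 pairs in EGF plus gefitinib over EGF, with a median difference of −0.06. Only H2AC6 with H2BC4 and H2AC25 with H2BC26 had both genes called. Differences within pairs were not tested.

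**Figure D5:**
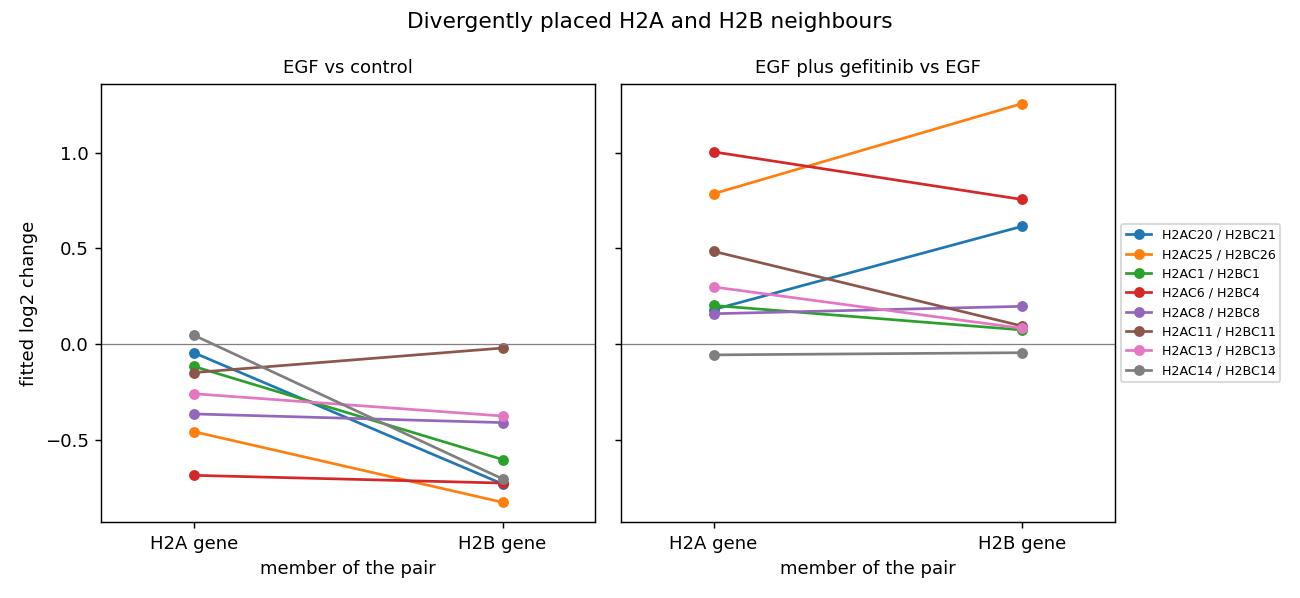
Fitted log2 changes of the H2A and the H2B gene (joined points) of 8 head-to-head pairs in EGF over control and in EGF plus gefitinib over EGF. The H2B end is the lower one of most lines in EGF over control (7 of 8), and the pairs H2AC6 with H2BC4 and H2AC25 with H2BC26 lie highest in EGF plus gefitinib over EGF.

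Promoter windows were found for 57 of the 61 genes among 27305 promoters of the same length. Matches were counted on either strand and at any place in the window. The TATA box was in 68.4% of the histone windows and in 11.1% of all. The octamer, which POU2F1 binds and which H2B promoters are known for, was in 14 of 17 H2B and 8 of 13 H2A windows and in 0 of the H1, H3 and H4 windows, against 1.66% of all. Head-to-head H2A and H2B genes share octamers and can share the other matches, TATA boxes included, since their windows overlap. The CCAAT box was in every H1, H2A, H2B and H3 window matched and in 3 of 13 H4 windows, against 33% of all. The core GGTCCG, part of the H4 element to which HINFP binds, was in 12 of 13 H4 windows, against 9.33% of all.

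Among H2B genes the median change in EGF over control was −0.58 in the 14 with an octamer and −0.39 in the 3 without. The same medians were 0.25 and 0.62 in EGF plus gefitinib over EGF. Among H2A genes, the 8 with an octamer and the 5 without both had a median of −0.26 in EGF over control, and 0.19 and 0.37 in EGF plus gefitinib over EGF. Among H4 genes the median change in EGF plus gefitinib over EGF was 0.19 in the 7 with a TATA box and 0.60 in the 6 without, and among H3 genes it was 0.83 in the 6 with and 0.68 in the 2 without. A letter match is not evidence of binding, and none of these splits was tested.

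Some replication dependent histone genes are known to give polyadenylated transcripts as well, in cells that leave the cycle. The 6 listed here, H1-2, H2AC6, H2BC4, H2BC5, H2BC12 and H2BC21, were all lower in EGF than in control without overlap, with a median change of −0.65 and 0 called (4 lower at an unadjusted p under 0.05 by limma). Over all probe sets 28.5% were lower without overlap, 5.3% were called lower and 12.7% were lower without adjustment. The list is not apart from H2B, to which most of it belongs and where 15 of 17 genes were lower without overlap. The median of the 6 was 0.63 in EGF plus gefitinib over EGF, and H2AC6 and H2BC4 rose, where 8.86% of all probe sets did. The call of H2AC6 was lost without EGF plus gefitinib 1 or EGF 1. That of H2BC4 was lost without EGF plus gefitinib 1, EGF plus gefitinib 2, EGF 1 or EGF 2. Of 5 histones known mainly from testis, which include H3-4 from outside the set, 1, H1-1, was above the limit on 2 or more arrays. The others that belong to the set, H1-6, H2AC1 and H2BC1, were below it on every array and serve as low-signal members.

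Factors that transcribe and trim histone mRNA moved in both directions. In EGF over control 3 of 24 measured members rose and 2 fell, where 6.61% and 5.3% of all probe sets did, so both counts lie near the background. NCBP1, the large subunit of the nuclear cap-binding complex, rose by 1.12, with 10.31 and 10.50 in EGF, against 9.28 and 9.29 in control (adjusted p = 0.0115). CPSF2, a subunit of the histone cleavage complex, rose by 0.94 and UPF1, the helicase that takes part in histone mRNA decay, by 0.78. TENT2, a poly(A) polymerase, fell by 0.81, and so did E2F1, an activator of S phase genes, which was below the limit in EGF. UPF1 was chosen for naming after its value was seen. In this comparison no call of the list was made without control 1, control 2, EGF 1 or EGF 2.

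Of the same 24 factors 1 rose and 7 fell in EGF plus gefitinib over EGF, with a median of −0.37, where 8.86% and 9.81% of all probe sets did. The one that rose was HINFP, the zinc finger protein of H4 promoters. HINFP had 9.50 and 9.15 in EGF plus gefitinib, 7.44 and 8.0 in EGF and 8.72 and 8.37 in control, and rose by 1.6 ± 0.26 (SE, adjusted p = 0.0061). EGF was its lowest group on both arrays. CPSF2 had 9.0 and 9.57 in EGF plus gefitinib, 11.16 and 11.25 in EGF and 10.36 and 10.16 in control, and fell by 1.92 against EGF (adjusted p = 0.00204). CSTF2, another subunit of the cleavage machinery, fell by 1.48, CDK2 by 1.16, and SLBP, chosen for naming after its value was seen, by 0.66 (adjusted p = 0.0423, a call lost whichever array was left out). HINFP remained called whichever array was left out, while the lower calls numbered 2 without EGF 2, 4 without EGF 1 and 5 or 6 in the other 4 fits. Whether these changes relate to those of the H4 genes was not tested. Against control, CDK2 fell by 1.0 and E2F1 by 0.89, and TUT7, a uridylyltransferase of histone mRNA decay, rose by 0.96, and none of these was called once any 1 array was left out.

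Genes of DNA synthesis, whose products are made in the same phase as histones, had more members that fell than rose where gefitinib was present. In EGF plus gefitinib over EGF, 1 of 24 rose, CDT1, a licensing factor (by 1.05), and 8 fell, with a median of −0.45, where 8.86% of all probe sets rose and 9.81% fell. SLBP is in this list as well as among the histone mRNA factors, so its fall counts in both. RRM2, a subunit of ribonucleotide reductase, had 10.73 and 10.91 in EGF plus gefitinib, 12.61 and 12.64 in EGF and 12.23 and 12.45 in control, and fell by 1.81 against EGF (adjusted p = 0.00112). GINS1 of the replicative helicase fell by 1.51, UHRF1, which binds hemimethylated DNA, by 1.69 and the flap nuclease FEN1 by 1.14. Without EGF 2, 4 of the list were called lower, and 6 or 7 without any 1 of the other arrays. Against control 0 rose and 5 fell, where 2.19% and 1.7% of all probe sets did, among them GINS1 by 1.51 and RRM2 by 1.52, with 2 lower without EGF 1 or EGF 2 and 0 without any 1 of the other 4 arrays. In EGF over control 1 rose, FEN1 by 0.67, and 2 fell, MCM3 by 0.84 and MCM5 by 0.72, both subunits of the replicative helicase, where 6.61% and 5.3% of all probe sets did, and limma called none of these without control 1, control 2, EGF 1 or EGF 2. The difference between this list and the histones was not tested.

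Chaperones that carry histones had 0 of 21 higher and 2 lower in EGF over control, near the 6.61% and 5.3% of all probe sets. These were MCM2, a helicase subunit that also holds H3 and H4, which fell by 1.01 (adjusted p = 0.0176), and CHAF1B of the CAF-1 complex, which fell by 1.02. NAP1L1, an H2A and H2B chaperone, rose by 0.86 in EGF plus gefitinib over EGF and ATRX, which deposits H3.3, by 0.95, where 8.86% of all probe sets rose, and against control, where 1.7% fell, ANP32E, which removes H2A.Z, fell by 0.89. The calls in EGF over control were lost without control 1, control 2, EGF 1 or EGF 2. Over EGF, the call of NAP1L1 was lost without EGF 1 or EGF 2, and that of ATRX whichever array was left out. The call of ANP32E against control was also lost whichever array was left out. Of 15 measured histone variants that are made outside S phase as well, H2AX fell and H1-10 rose in EGF plus gefitinib over EGF, where 9.81% and 8.86% of all probe sets did. H2AX, the variant phosphorylated at DNA breaks, had 11.00 and 10.62 in EGF plus gefitinib, against 12.08 and 11.84 in EGF (change −1.15, adjusted p = 0.00875). Its change had the opposite sign to those of the 2 called H2A genes. H1-10 was below the limit on all 6 arrays, so its change has no fold. Without EGF 1 neither was called, and without EGF 2 only 1 lower. In EGF over control 0 variants were called by limma (1 higher and 3 lower at an unadjusted p under 0.05), and against control CENPA, the centromeric H3, rose by 0.95 while below the limit on every array, a call lost whichever array was left out.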

How the data were processed

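RNA of 6 samples was measured on 1 Affymetrix array each. The deposited values are log2 signals that, per the submitters' processing notes, the authors made in Transcriptome Analysis Console. No version, background correction or normalization of it is stated in the labels. The values ran from 1.58 to 18.9, which fits a log2 scale, and were used as deposited. Of 24351 probe sets, 2903 controls were left out of the fit. Genes were named from the platform annotation: 17709 probe sets had 1 symbol and 3739 none.

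Group means were fitted over all 6 arrays with limma 3.58.1 in R 4.3.3 (lmFit and eBayes, two-sided), and p-values were Benjamini-Hochberg adjusted over 21448 probe sets and called under 0.05. The fit was tested on simulated data. The members and lists were chosen with earlier results of these data known. Named with values were called members, the member of each class with the largest moderated statistic per comparison, the brightest of each class, H4C5, both genes of a pair where pairs are described, and, of each other list, up to 4 genes per comparison with the largest moderated statistic; others named from these lists were chosen after their values were seen. Same-numbered samples deviated with r of −0.04, 0.02 and −0.00 over all probe sets, so the main fit has no block. Alternatives were quantile normalization, median centring, a filter on low values, a replicate block, the 4 arrays compared, an intensity trend, the mean of probe sets, above-limit histones and leaving out each array.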

Additional observations from a re-analysis of the deposited data

How the results depend on the processing

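The median change of all histones kept its sign in EGF over control (−0.38 to −0.30 without 1 array) and in EGF plus gefitinib over EGF (0.22 to 0.58), but not in EGF plus gefitinib over control (−0.095 to 0.21). Counts moved more, and the cause was not tested. They are to be read against the share over all probe sets in the same fit. With the filter, EGF over control had 11 of 53 histones and 1763 of 9211 probe sets lower. With the trend it had 18 of 61 and 1961 of 21448, a larger share of the histones, while in the main fit 1 of 61 lay below the background. The shares over all probe sets for EGF plus gefitinib over EGF in these fits are not given here. Histones called in EGF over control were 4 (all lower) after quantile normalization, 11 (all lower) with the filter on low values, 5 with only the 4 arrays compared, 18 with an intensity trend and 0 to 5 without 1 array. In EGF plus gefitinib over EGF they were 27 with the filter (26 higher), 27 with the trend, 7 with the 4 arrays and 0 to 14 without 1 array. In EGF plus gefitinib over control they were 6 of 53 with the filter, where 2538 of 9211 probe sets were called, a smaller share of the histones. With the trend they were 10 of 61, where 2770 of 21448 probe sets were, and with the 4 arrays 0 of 61, where 247 of 21448 were. All 3 calls of the main fit in that comparison were lost whichever array was left out. With the replicate number as a block, whose numbers did not pair the samples, 1, 8 and 0 histones were called in the 3 comparisons. Median centring gave 1, 9 and 2.

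Probe sets called in EGF over control were 3945 with the filter, 4237 with the trend and 726 to 2506 without 1 array. EGF plus gefitinib over EGF had 1889 to 3406 without 1 array. In EGF plus gefitinib over control they were 2538 with the filter, 2770 with the trend, 333 with the replicate block, 247 with the 4 arrays and 0 to 247 without 1 array. The H4 median in EGF plus gefitinib over EGF was 0.56 with the filter and over the H4 genes above the limit. Class medians in that comparison without 1 array were 0.16 to 0.46 for H2A, 0.089 to 0.53 for H2B, 0.50 to 0.93 for H3 and 0.22 to 0.70 for H4. In EGF plus gefitinib over control they were −0.46 to 0.082 for H2B, 0.16 to 0.59 for H3 and −0.32 to 0.27 for H4, and in EGF over control −0.30 to −0.092 for H1.

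Changes near 0 turned sign, none of them called. Quantile normalization gave −0.045 for H4C12 in EGF over control and −0.0025 for H2BC4 in EGF plus gefitinib over control. Median centring gave 0.049 for H3C1 and 0.012 for H2AC20 in EGF over control, −0.0035 for H2BC12 in EGF plus gefitinib over EGF and −0.0046 for H3C2 in EGF plus gefitinib over control. Without 1 array, EGF over control ran over −0.32 to 0.47 for H2BC17, −0.23 to 0.22 for H3C1, −0.24 to 0.048 for H3C10 and −0.23 to 0.29 for H4C12. EGF plus gefitinib over EGF ran over −0.14 to 0.030 for H2AC14, −0.22 to 0.36 for H2BC12 and −0.019 to 0.54 for H4C3. EGF plus gefitinib over control ran over −0.11 to 0.18 for H1-2, −0.095 to 0.077 for H2AC14, −0.50 to 0.081 for H2BC12, −0.13 to 0.19 for H2BC4, −0.22 to 0.24 for H3C2 and −0.35 to 0.20 for H4C3. Of 117 changes of named genes and called list members, calls were lost in 4 under quantile normalization, 5 under centring, 23 under the replicate block and 21 with the 4 arrays, and gained in 14 with the filter and 16 with the trend. Where a group was left with 1 array, that array is assumed to vary like the others, and signal near the limit bounds 8 histones that passed it on fewer than 2 arrays.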
